A study of Mus musculus with 19 samples.

Results

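The protein-coding genes of the cytosolic ribosome were followed in T cells from mouse liver metastases. They were taken from the gene table by symbol: names of the form Rpl or Rps with a number (and the endings a, x, l, l1 or al), together with Rplp0, Rplp1, Rplp2 and Rpsa. Pseudogenes and the Rps6k kinases were left out by this rule. It gave 83 genes of 25639 in all, of which 52 encode proteins of the large subunit and 31 proteins of the small subunit. The rule uses names only, but it was set with earlier results of these data known. In each of the 2 cell types 80 of the 83 genes passed the filter on low values and were tested. The remaining members, Rpl3l, Rpl10l and Rpl39l, were low or listed at 0, and their highest values in any library were 0.144, 9.52 and 6.84 RPKM, read counts divided by gene length and by library size.

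The ribosome translates mRNA into protein. Its small subunit binds and decodes the mRNA, and its large subunit joins the amino acids. The ribosomal proteins fold the ribosomal RNA and are made in about equal amounts, and their mRNAs are among the most abundant in any growing cell. These mRNAs begin with a run of pyrimidines, the terminal oligopyrimidine (TOP) tract, through which the growth kinase mTORC1 and its target Larp1 control their translation. In T cells, activation raises ribosome production ahead of cell division.

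The 19 RNA-seq libraries came from CD8+ and CD4+ T cells sorted by flow cytometry on CD45, CD3ε, CD4 and CD8α from liver metastases, collected on day 30 after Venus-AKTPM/LOH colorectal cancer cells were injected into the spleen. The study compared 3 genotypes. Tet2fl/fl mice carried floxed Tet2 and no Cre and served as controls, Vav1CreTet2KO mice lose Tet2 across blood cells through a Vav1-driven Cre, and Cd4CreTet2KO mice lose it in T cells through a Cd4-driven Cre. Floxed Tet2 was shared by every group. In Vav1CreTet2KO tumours the T cells and the other blood cells around them are both mutant, whereas in Cd4CreTet2KO tumours the other blood cells keep Tet2. CD8+ cells were sequenced from 3, 3 and 4 animals and CD4+ cells from 3, 3 and 3, with 11 animals in all and 8 giving both cell types. The strain and age of the mice are not stated in the labels. RNA was taken from pooled sorted cells, so fewer cells of a type and less RNA per cell cannot be told apart.

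Reads on genes ranged from 8189300 to 20327809 in CD8+ libraries and from 707866 to 17575534 in CD4+ libraries. The lowest was CD4+ Vav1CreTet2KO replicate 1, with 7761 genes above 0 and 68512 reads on the ribosomal protein genes. The other libraries held at least 465212 reads on them in all. Counting error was not compared with the spread between animals, and it weighs more on low members such as Rps27l and Rpl7l1. Tet2 itself lay at 6.57 to 8.06 RPKM in CD8+ control libraries, 2.93 to 6.28 in Vav1CreTet2KO and 3.01 to 7.57 in Cd4CreTet2KO libraries. In CD4+ libraries it lay at 3.87 to 7.02, 2.77 to 5.65 and 4.53 to 7.28 RPKM. These values cover the whole gene, including exons that Cre leaves in place, and check nothing about the deletion. As a check of the sort, the Cd4 transcript was at most 7.68 RPKM in CD8+ libraries and at 0 in the controls, and Cd8a and Cd8b1 summed to at most 8.01 RPKM in CD4+ libraries.

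There were 3 libraries that stood apart in the ribosomal protein genes themselves. With each gene classed by the length of its principal transcript, the summed RPKM of members of at most 600 bases was divided by that of members of at least 900 bases. The ratio was 1.92 in CD8+ Vav1CreTet2KO replicate 1, 1.81 in CD4+ Vav1CreTet2KO replicate 1 and 1.79 in CD4+ Vav1CreTet2KO replicate 2, and 0.939 to 1.13 in the other 16 libraries. Both replicates numbered 1 came from the same animal. The animal of CD4+ replicate 2 also gave CD8+ Vav1CreTet2KO replicate 2, where the ratio was 1.13. The rank order of the 80 tested members against single control libraries gave a Spearman rho of 0.715 to 0.812 in these libraries, and of 0.942 to 0.983 in the others, as a description across genes. Other short genes moved with them: the median of other tested genes of at most 600 bases lay 1.28, 1.007 and 1.68 above the control mean on the log2 scale. CD8+ Vav1CreTet2KO replicate 1 differed in another respect, since 50.6% of its low gene counts (1 to 20 reads) were odd numbers, against 13.1% to 30.7% in the other 18 libraries. Counting each mate of a read pair gives mostly even numbers. The labels do not say how pairs were counted, and whether this library was counted in another way than the rest was not tested. The share of RPKM on the mitochondrial genome, which can move with RNA and library quality, was 7.17% to 9.69% in the 3 tilted libraries and 3.66% to 5.67% in the other 16. All 3 libraries belong to Vav1CreTet2KO mice, so the main results for that genotype are also given without them. The differences in the ribosomal protein genes' share of RPKM kept their direction with mitochondrial genes left out of the summed RPKM. The part of the tilt in those results, and of the quality that the mitochondrial share can move with, was not tested. Among the other 16 libraries the short over long ratio was 0.939 to 0.968 in CD8+ controls and at least 1.031 in CD8+ mutants. In CD4+ cells it was 0.971 to 1.008 in controls and at least 1.041 in mutants. Libraries called untilted below were thus still shifted to short members relative to every control of their cell type. The part of this smaller shift was not tested either.

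**Figure D1:**
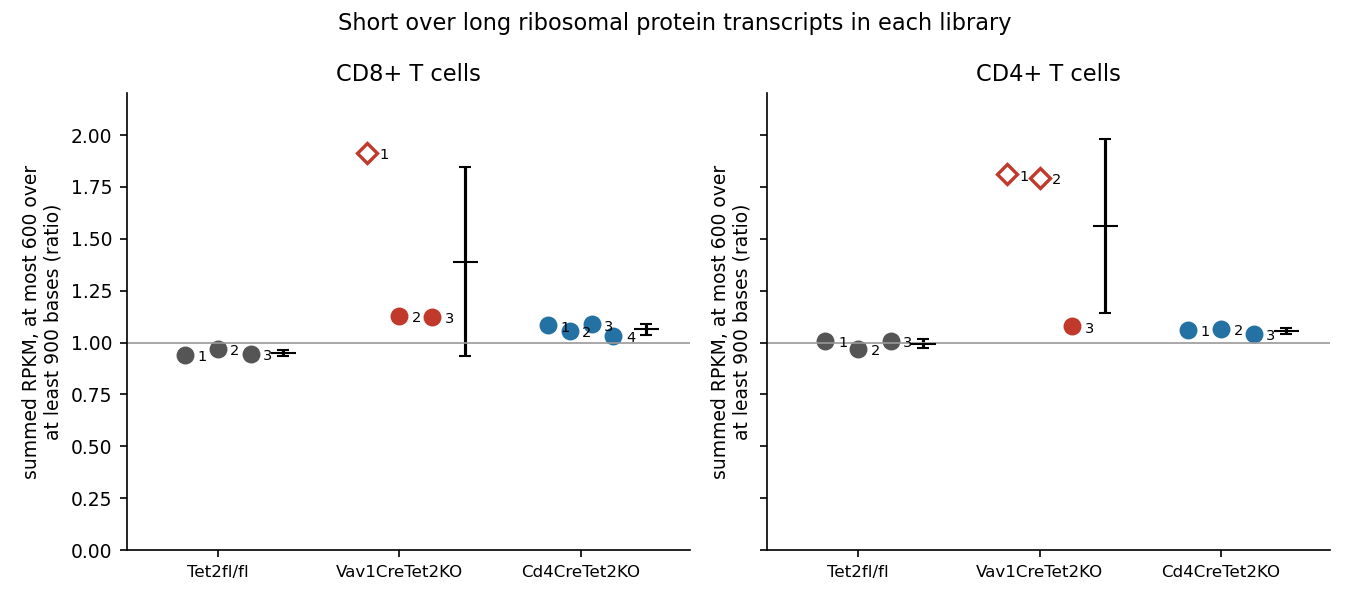
Summed RPKM of ribosomal protein genes with principal transcripts of at most 600 bases over that of genes of at least 900 bases, 1 point per library with its replicate number, by cell type and genotype. The 3 Vav1CreTet2KO libraries drawn as open diamonds lie at 1.79 to 1.92 and the other 16 between 0.939 and 1.13. In each cell type every control lies below every mutant.

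Ribosomal protein mRNAs were among the most abundant in every library. Of the 100 genes of highest mean RPKM, 54 were members in CD8+ cells and 47 in CD4+ cells. The median member had a mean of 291 RPKM in CD8+ cells and 257 in CD4+ cells. Highest in both tables stood Rpl23a, a protein at the exit of the peptide tunnel, with means of 1528 and 1335 RPKM, and Rplp1, an acidic protein of the stalk that recruits elongation factors, with 1360 and 1217. Rpl13a (1061 and 949 RPKM) and Rps23, a protein of the decoding centre (1036 and 1113), came next. After these came Rpl26 in CD8+ cells at 916 RPKM and Rpl19 in CD4+ cells at 886. The 5 highest members held 19.3% of all member RPKM in CD8+ cells and 20.2% in CD4+ cells.

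The lowest tested members were mostly paralogs, copies of a ribosomal protein gene that encode a similar protein. Rpl7l1 had a mean of 7.37 RPKM in CD8+ and 5.35 in CD4+ cells, and Rps27l had 8.01 and 3.64. Rpl22l1 lay at 29.4 RPKM in CD8+ cells. Rps15a, a small subunit protein, was the third lowest in CD4+ cells at 22.5 RPKM, but the table divides its reads by a gene length of 6000 bases, against 640 bases for its principal transcript. Levels of different members on the RPKM scale therefore also depend on the exons counted. Comparisons of 1 gene between libraries are not touched by this. They do depend on the summed RPKM, which ranged from 124408 to 251038 in CD8+ and from 123209 to 233235 in CD4+ libraries.

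The parent genes far exceeded their copies. In control CD8+ cells Rpl22 had 125 ± 13.6 RPKM (SD, n = 3) against 28.7 ± 10.1 for Rpl22l1, the paralog that can replace it. Rps27 had 166 ± 12.8 against 7.88 ± 3.97 for Rps27l, a p53 target. Rpl7 had 382 ± 69.0 against 6.44 ± 2.19 for Rpl7l1, and Rpl36a had 226 ± 45.2 against 42.7 ± 8.92 for Rpl36al. Rpl3 stood at 412 ± 53.0 and Rpl10 at 275 ± 47.5, with their copies Rpl3l, a muscle form, and Rpl10l, a testis form, at or near 0. Rpl39, which lines the peptide tunnel, stood at 122.4 ± 15.2 RPKM with its copy Rpl39l at 0.

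The ribosomal protein genes held a higher share of all RPKM in every mutant CD8+ library than in any control CD8+ library. In control CD8+ cells the share was 14.8%, 14.3% and 14.6% of the summed RPKM. In Vav1CreTet2KO CD8+ cells it was 26.6%, 16.2% and 22.2%, and in Cd4CreTet2KO cells 15.4%, 18.5%, 21.5% and 14.9%. The mean of Vav1CreTet2KO (21.7% ± 5.23, SD, n = 3) exceeded that of controls (14.6% ± 0.271, n = 3) by 7.11 points, with p = 0.1 in a two-sided exact permutation test, the smallest value that 3 against 3 libraries can give. Cd4CreTet2KO (17.6% ± 3.05, n = 4) exceeded controls by 3.03 points with an exact permutation p of 0.0571, the smallest for 4 against 3. The mutants overlapped each other, with a difference of 4.08 points (exact permutation p = 0.229). Without Vav1CreTet2KO replicate 1, the library tilted to short transcripts, the excess over controls was 4.63 points and that over Cd4CreTet2KO 1.599 points. Without Cd4CreTet2KO replicate 3 the excess of that group over controls was 1.73 points.

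In CD4+ cells the higher share was seen in Vav1CreTet2KO libraries and not in Cd4CreTet2KO libraries. Controls held 13.9%, 13.98% and 17.3%, Vav1CreTet2KO 21.7%, 21.9% and 18.5%, and Cd4CreTet2KO 16.3%, 11.6% and 12.1%. All 3 Vav1CreTet2KO libraries lay above all 6 others. Their mean (20.7% ± 1.89, SD, n = 3) exceeded the control mean (15.04% ± 1.93, n = 3) by 5.66 points and the Cd4CreTet2KO mean (13.3% ± 2.59, n = 3) by 7.36 points, each with an exact permutation p of 0.1, the smallest possible. Cd4CreTet2KO differed from controls by -1.71 points with overlapping values (exact permutation p = 0.5). CD4+ Vav1CreTet2KO replicate 3, the library without the tilt, stood 3.48 points above the control mean and 5.18 points above the Cd4CreTet2KO mean, values with no test. The difference between the Cd4CreTet2KO effects in CD8+ and CD4+ cells was not tested, because the authors normalized the 2 tables separately.

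**Figure D2:**
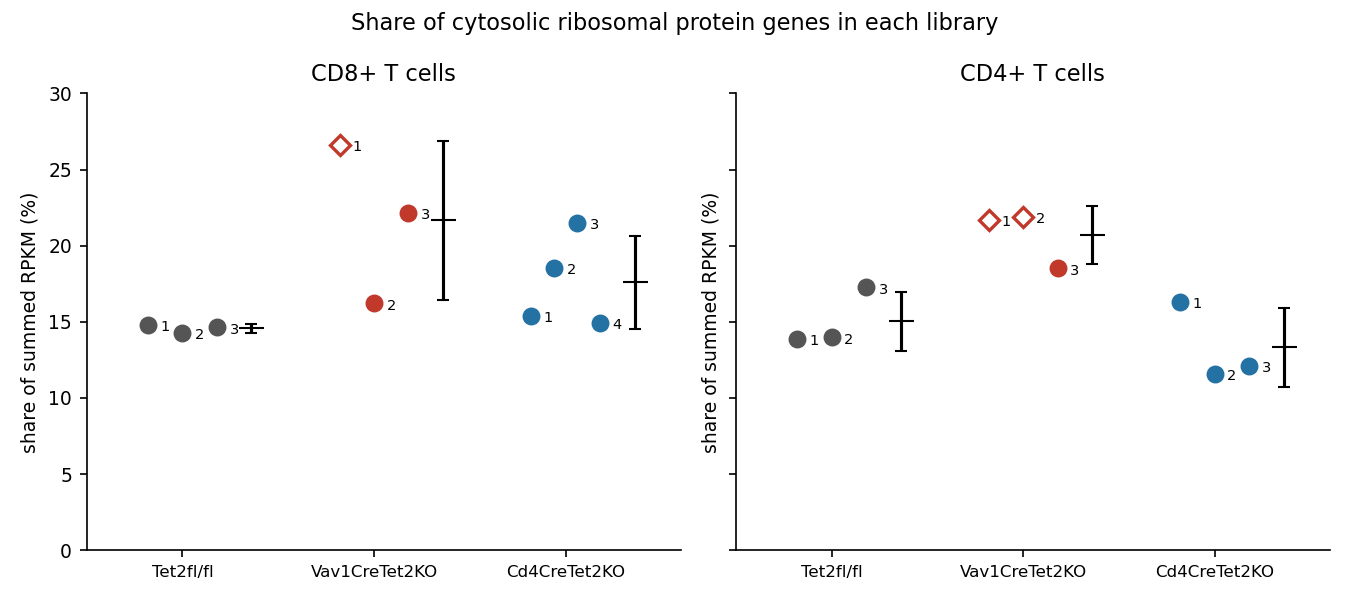
Share of summed RPKM held by the 83 ribosomal protein genes in each library, in percent, by cell type and genotype; digits are replicates, open diamonds the 3 libraries tilted to short transcripts, black bars the mean ± SD. Control CD8+ libraries sit at 14.3% to 14.8%, below all 7 mutant CD8+ libraries, and the 3 CD4+ Vav1CreTet2KO libraries sit at 18.5% to 21.9%, above the other 6.

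Both subunits took part in these shares. In CD8+ cells the small subunit genes held 5.13% ± 0.101 of RPKM in controls, 7.73% ± 1.90 in Vav1CreTet2KO and 6.28% ± 1.02 in Cd4CreTet2KO libraries (SD, n = 3, 3 and 4). The large subunit genes held 9.44% ± 0.182, 13.9% ± 3.35 and 11.3% ± 2.05. In CD4+ cells the small subunit held 5.26% ± 0.644, 7.59% ± 0.814 and 4.57% ± 0.888, and the large subunit 9.78% ± 1.29, 13.1% ± 1.34 and 8.76% ± 1.70 (n = 3 each). In the untilted Vav1CreTet2KO libraries the small subunit held 5.64% and 8.20% in CD8+ cells and 6.82% in CD4+ cells, and the large subunit 10.6%, 13.98% and 11.7%.

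Length divided the excess unevenly. Members of at most 600 bases held 4.90% ± 0.0323 of RPKM in control CD8+ cells and 8.92% ± 3.19 in Vav1CreTet2KO cells, whereas members of at least 900 bases held 5.15% ± 0.105 and 6.41% ± 0.972. In the 2 untilted Vav1CreTet2KO CD8+ libraries the short members held 6.11% and 8.26% and the long ones 5.41% and 7.35%. Other genes of at most 600 bases held 3.53% ± 0.316 in control and 4.86% ± 1.65 in Vav1CreTet2KO CD8+ cells, and 2.76% ± 0.363 and 6.16% ± 2.35 in CD4+ cells. In the untilted libraries these other short genes held 3.83% and 3.995% in CD8+ and 3.45% in CD4+ cells. Over the long members alone, Vav1CreTet2KO exceeded controls by 1.26 points in CD8+ cells (exact permutation p = 0.1, the smallest possible) and by 0.397 points in CD4+ cells (exact permutation p = 0.5). For Cd4CreTet2KO against controls the long members differed by 0.813 points in CD8+ cells (exact permutation p = 0.343) and by -0.640 points in CD4+ cells (exact permutation p = 0.4). The 78 mitochondrial ribosomal protein genes, which build the separate ribosome of mitochondria, held 0.337% ± 0.0309 in control CD8+ cells, 0.346% ± 0.0812 in Vav1CreTet2KO and 0.319% ± 0.0192 in Cd4CreTet2KO cells. In CD4+ cells they held 0.289% ± 0.0295, 0.382% ± 0.0965 and 0.296% ± 0.00135, with 0.285% in the untilted Vav1CreTet2KO library. The 18 elongation factor and other TOP genes held 2.94% ± 0.109, 2.94% ± 0.555 and 2.97% ± 0.383 in CD8+ cells.

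Gene by gene, most members had higher means in Vav1CreTet2KO than in control CD8+ cells, but none passed the threshold. With limma on log2(RPKM + 1), 77 of 80 lay higher and the median difference was 0.72 on the log2 scale, against -0.11 over all 10224 genes tested. No member was called at an adjusted p of 0.05, where 0.45% of all genes were called higher. At an unadjusted p of 0.05, 41 members lay higher, against 5.7% of all genes higher. With edgeR on whole reads recovered from the RPKM values the adjusted count was also 0, with 59 higher at an unadjusted p of 0.05 (8.11% of all genes), and DESeq2 on the same reads called 33 higher, where it called 2.76% of all genes higher. All 3 Vav1CreTet2KO libraries lay above all 3 controls for 45 members (6.92% of all genes). Without replicate 1 of Vav1CreTet2KO the median was 0.39, with 74 of 80 members higher and 0 called. At an unadjusted p of 0.05 there were then 13 members higher, against 4.41% of all genes, and 1 lower, Rps27l (-1.78, SE 0.41, limma adjusted p = 0.0938).

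The largest differences in this comparison were those of small proteins. Rpl29, a large subunit protein, had 229.6, 207.6 and 193.2 RPKM in control CD8+ libraries and 1394, 564.1 and 484.7 in Vav1CreTet2KO libraries. The groups did not overlap, and the log2 difference by limma was 1.79 (SE 0.49, adjusted p = 0.0924). Rps27, a zinc-finger protein of the small subunit, had 164.4, 180.2 and 154.9 against 1133, 305.1 and 394.9 RPKM, again without overlap and with replicate 1 far above the others. Its log2 difference was 1.63 (SE 0.42, adjusted p = 0.0796). Rps21 followed with 1.47 (SE 0.42, adjusted p = 0.103) and Rplp1 with 1.45 (SE 0.44, adjusted p = 0.124). Without replicate 1 these 4 differences were 1.31, 1.06, 0.91 and 0.90. At the other end stood Rps27l (-0.51, SE 0.81), Rpl7a (-0.21, SE 0.29), Rpl4 (-0.07) and Rpl7 (0.03), of which Rpl4 and Rpl7 are long core proteins of the large subunit.

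In CD8+ cells of Cd4CreTet2KO mice no member was called and the differences from controls were mostly small. The median log2 difference was 0.11, against -0.15 over all genes tested, and 54 of 80 lay higher. limma called none, where 0.0685% of all genes were called higher, and none reached an unadjusted p of 0.05, where 3.68% of all genes did so on the higher side. With edgeR and DESeq2 on recovered reads the adjusted counts were 0 as well, with 8 and 6 members higher at an unadjusted p of 0.05 (6.37% and 6.14% of all genes). The count of members that lay higher depended on the scaling: it was 75 with edgeR, 73 with RPKM divided by size factors from other genes and 69 with RPKM scaled to an equal sum. The median moved with it, to 0.35 with edgeR, 0.33 with DESeq2, 0.31 with those size factors and 0.24 with an equal sum, where the medians of all genes were 0.04, 0.00, 0.01 and -0.05. In Vav1CreTet2KO against controls the last scaling moved the median of all genes from -0.11 to -0.28. The members' median there moved from 0.72 to 0.49, with 69 of 80 higher. Without Cd4CreTet2KO replicate 3 the members' median for Cd4CreTet2KO against controls was -0.00. All 4 libraries lay above every control for 3 of 80 members, Rplp1 and Rps15 among them, against 3.85% of all genes. Rplp1 also had the largest difference, 0.81 (SE 0.41, adjusted p = 0.46), with 677.6, 706.8 and 660.1 RPKM in controls and 912.5, 960.3, 1946 and 1211 in Cd4CreTet2KO libraries. Next were Rps15 with 0.51, Rps28 with 0.44 and Rpl37 with 0.43. The lowest were Rps27l (-0.51), Rpl22l1 (-0.31), Rpl24 (-0.31) and Rpl4 (-0.28).

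Set against each other, the 2 mutants differed in the same direction in CD8+ cells. The median of Vav1CreTet2KO minus Cd4CreTet2KO was 0.62, against 0.04 over all genes, with 77 of 80 members higher, or 57 of 80 after RPKM was scaled to an equal sum. No gene at all was called higher by limma (0% of all genes), so no member was. At an unadjusted p of 0.05 there were 26 members higher, against 3.66% of all genes, and DESeq2 and edgeR on recovered reads called 0 members, with 36 and 33 at an unadjusted p of 0.05 (3.46% and 3.2% of all genes). In RPKM all 3 Vav1CreTet2KO libraries lay above all 4 others for 11 members (2.07% of all genes), Rps29 among them. Rpl29 (1.41), Rps27 (1.29), Rpl27 (1.28) and Rpl38 (1.17) had the largest differences, each with an adjusted p of 0.723. Rplp0 (-0.09), Rps2 (-0.02), Rpl7a (-0.01) and Rps4x (0.00) had the lowest. Without Vav1CreTet2KO replicate 1 the median was 0.25 and 79 of 80 members lay higher.

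**Figure D3:**
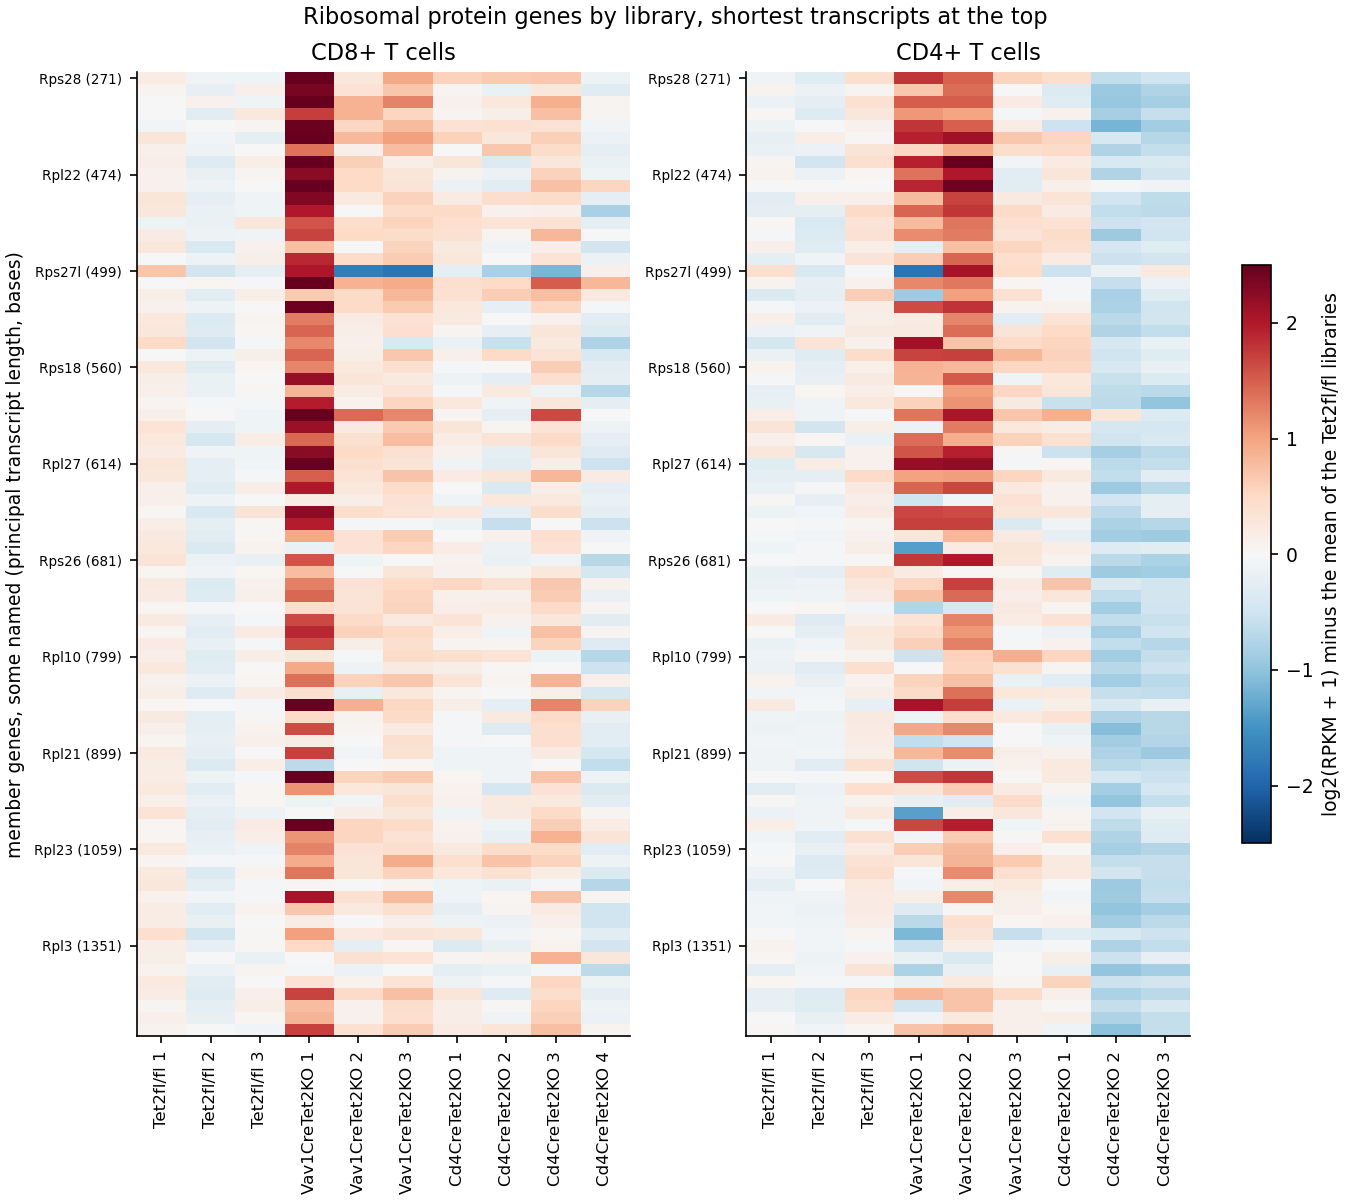
Each member's log2(RPKM + 1) in each library minus its mean over the control libraries of the same cell type, with members as rows ordered by principal transcript length (some of them named) and libraries as columns; the colour scale stops at ±2.5. The 3 tilted Vav1CreTet2KO columns are strongest among the short members, and CD4+ Cd4CreTet2KO replicates 2 and 3 lie below controls over most rows.

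CD4+ cells gave the same direction for Vav1CreTet2KO. In edgeR's quasi-likelihood test on the deposited counts, 71 of 80 members lay higher than in controls and the median log2 difference was 0.77, against -0.16 over 13554 genes tested. No member was called, where 0.00738% of all genes (a single gene) were called higher. At an unadjusted p of 0.05 there were 50 members higher, against 6.72% of all genes. DESeq2 called 19 members higher, where it called 1.63% of all genes, and limma on log2(RPKM + 1) called 0, with 27 at an unadjusted p of 0.05 (4.43% of all genes). All 3 libraries lay above every control for 20 members (3.76% of all genes). Rpl41, the shortest ribosomal protein, had the largest difference, 1.97 (SE 0.48, edgeR adjusted p = 0.15). It had 289.4, 197.1 and 368.6 RPKM in controls and 1061, 1930 and 264.1 in Vav1CreTet2KO libraries, so replicate 3 lay within the controls. Rpl34 (1.83, SE 0.46), Rpl27 (1.81, SE 0.43) and Rps21 (1.78, SE 0.36, adjusted p = 0.111) followed. Rps21 had 179.9, 231.9 and 212.3 RPKM in controls and 798.0, 900.1 and 331.3 in Vav1CreTet2KO libraries, without overlap. Among the lowest were Rpl7l1 (-0.30), Rps6 (-0.22) and Rpl4 (-0.19).

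With only the untilted Vav1CreTet2KO replicate 3 left in CD4+ cells, 75 of 80 members still lay higher than in controls, with a median of 0.38, 0 called and 14 higher at an unadjusted p of 0.05, against 3.23% of all genes. In this fit the lone library is assumed to vary like the other groups. Against Cd4CreTet2KO the same library gave a median of 0.68, 78 of 80 higher and 2 members called, Rps29 and Rps4x, where 0.176% of all genes were called higher, and 51 members were higher at an unadjusted p of 0.05, against 2.81% of all genes.

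Against Cd4CreTet2KO, all 80 members lay higher in CD4+ Vav1CreTet2KO cells. The median was 1.07, against -0.19 over all genes tested. edgeR called 1 member, Rps29, where 0.0443% of all genes were called higher, and 57 members reached an unadjusted p of 0.05 on the higher side, against 5.63% of all genes. DESeq2 called 35 members, where it called 1.47% of all genes higher, and limma on log2(RPKM + 1) called 0, with 53 higher at an unadjusted p of 0.05 (4.87% of all genes). All Vav1CreTet2KO libraries lay above all Cd4CreTet2KO libraries for 31 members (4.64% of all genes). After Rps29 the largest differences were those of Rpl27 (2.12, SE 0.43, adjusted p = 0.0799), Rpl41 (2.10, SE 0.48, adjusted p = 0.103) and Rpl39 (2.04, SE 0.38, adjusted p = 0.0698). Rplp0 and Rpl9 (each 0.05), Rpl7l1 (0.07) and Rps2 (0.08) had the smallest.

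CD4+ cells of Cd4CreTet2KO mice had slightly lower means than controls. The median was -0.21, against 0.00 over all genes tested, and 7 of 80 lay higher. edgeR, DESeq2 and limma called no member, where edgeR called 0.0221% of all genes lower. At an unadjusted p of 0.05 there were 5 members lower with edgeR (Rps29, Rps25, Rpl10a, Rpl18 and Rps7, the last 2 named after their values were seen), against 0.738% of all genes. DESeq2 had 2 (1.2% of all genes) and limma 3 (0.981%). All 3 Cd4CreTet2KO libraries lay below all controls for 14 members (9.24% of all genes). Rps29 (-0.75, SE 0.33), Rps25 (-0.66), Rpl10a (-0.63) and Rps27 (-0.62) were lowest, each with an adjusted p of 1.00. Rpl29 (0.43), Rps9 (0.10), Rps18 (0.09) and Rpl34 (0.09) were highest. Replicate 1 of Cd4CreTet2KO lay apart from the other two: its members had a median 0.13 above the control mean, against -0.66 and -0.56 in replicates 2 and 3.

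Rps29 encodes a small zinc-binding protein at the head of the small subunit and is mutated in some families with Diamond-Blackfan anemia, an inherited failure of red cell production. The table places it (ENSMUSG00000034892) on the minus strand of chromosome 12 from 69204496 to 69205960 and divides its reads by 390 bases. The file header names no build, and since only 1 of the 83 members has the start and end that GENCODE M21 (GRCm38) gives, the build and annotation behind this position are uncertain. In CD4+ cells it had 356.3, 392.3 and 418.2 RPKM in controls, 1349, 1093 and 438.6 in Vav1CreTet2KO and 270.8, 173.2 and 212.9 in Cd4CreTet2KO libraries. The 3 groups did not overlap, with Vav1CreTet2KO highest and Cd4CreTet2KO lowest, and replicate 3 of Vav1CreTet2KO close above the controls.

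Rps29 rose by 2.15 on the log2 scale in CD4+ Vav1CreTet2KO over Cd4CreTet2KO cells (SE 0.34, edgeR adjusted p = 0.0390). Against controls the values were 1.40 (SE 0.33, adjusted p = 0.15) for Vav1CreTet2KO and -0.75 for Cd4CreTet2KO. The call was lost with limma on log2(RPKM + 1) (adjusted p = 0.129), in a fit of only the compared groups (adjusted p = 0.329) and in 7 of the 9 fits that each left out 1 library (adjusted p from 0.0678 to 0.237). Those 7 left out any of the controls, any of the Cd4CreTet2KO libraries or Vav1CreTet2KO replicate 2. Without both tilted Vav1CreTet2KO libraries the difference was 1.13, a value that rests on 1 Vav1CreTet2KO library.

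In CD8+ cells Rps29 had 271.7, 282.6 and 299.5 RPKM in controls, 1549, 408.2 and 490.9 in Vav1CreTet2KO and 367.1, 369.0, 366.7 and 270.0 in Cd4CreTet2KO libraries. In RPKM every Vav1CreTet2KO library lay above the other 7, and replicate 1 was more than 3 times the next. Replicate 1 also had the highest summed RPKM of the CD8+ libraries, 251038. As a share of summed RPKM, Rps29 held 0.617%, 0.236% and 0.351% in Vav1CreTet2KO and 0.160% to 0.205% in control libraries. In Cd4CreTet2KO libraries it held 0.198% to 0.297%, so on that scale Vav1CreTet2KO replicate 2 lay among them. Vav1CreTet2KO cells differed from controls by 1.25 on the log2 scale (SE 0.42, adjusted p = 0.156 by limma), and Cd4CreTet2KO cells by 0.26 (SE 0.39, adjusted p = 0.847). Vav1CreTet2KO exceeded Cd4CreTet2KO by 0.99 (SE 0.39, adjusted p = 0.723). Without the tilted replicate 1 the differences of Vav1CreTet2KO were 0.65 from controls (SE 0.23, adjusted p = 0.207) and 0.39 from Cd4CreTet2KO (SE 0.22, adjusted p = 1.00).

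Members were among the genes whose log2(RPKM + 1) followed Rps29 most closely. Over the 10 CD8+ libraries they were Rps10 (Pearson r = 0.983), Rpl38 (0.969), Rps28 (0.969), Rps25 (0.969) and Rps21 (0.967). Over the 9 CD4+ libraries those closest included Rps27 (0.984), Cdc42 (0.969) and Rps27a (0.968), of which Cdc42 is not a member. Of the 50 genes most like Rps29, 27 were members in CD8+ and 14 in CD4+ cells. Members, Rps29 included, made up 80 of the 10224 genes tested in CD8+ and 80 of the 9990 in CD4+ cells. In both tables the libraries tilted to short transcripts are among the points.

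**Figure D4:**
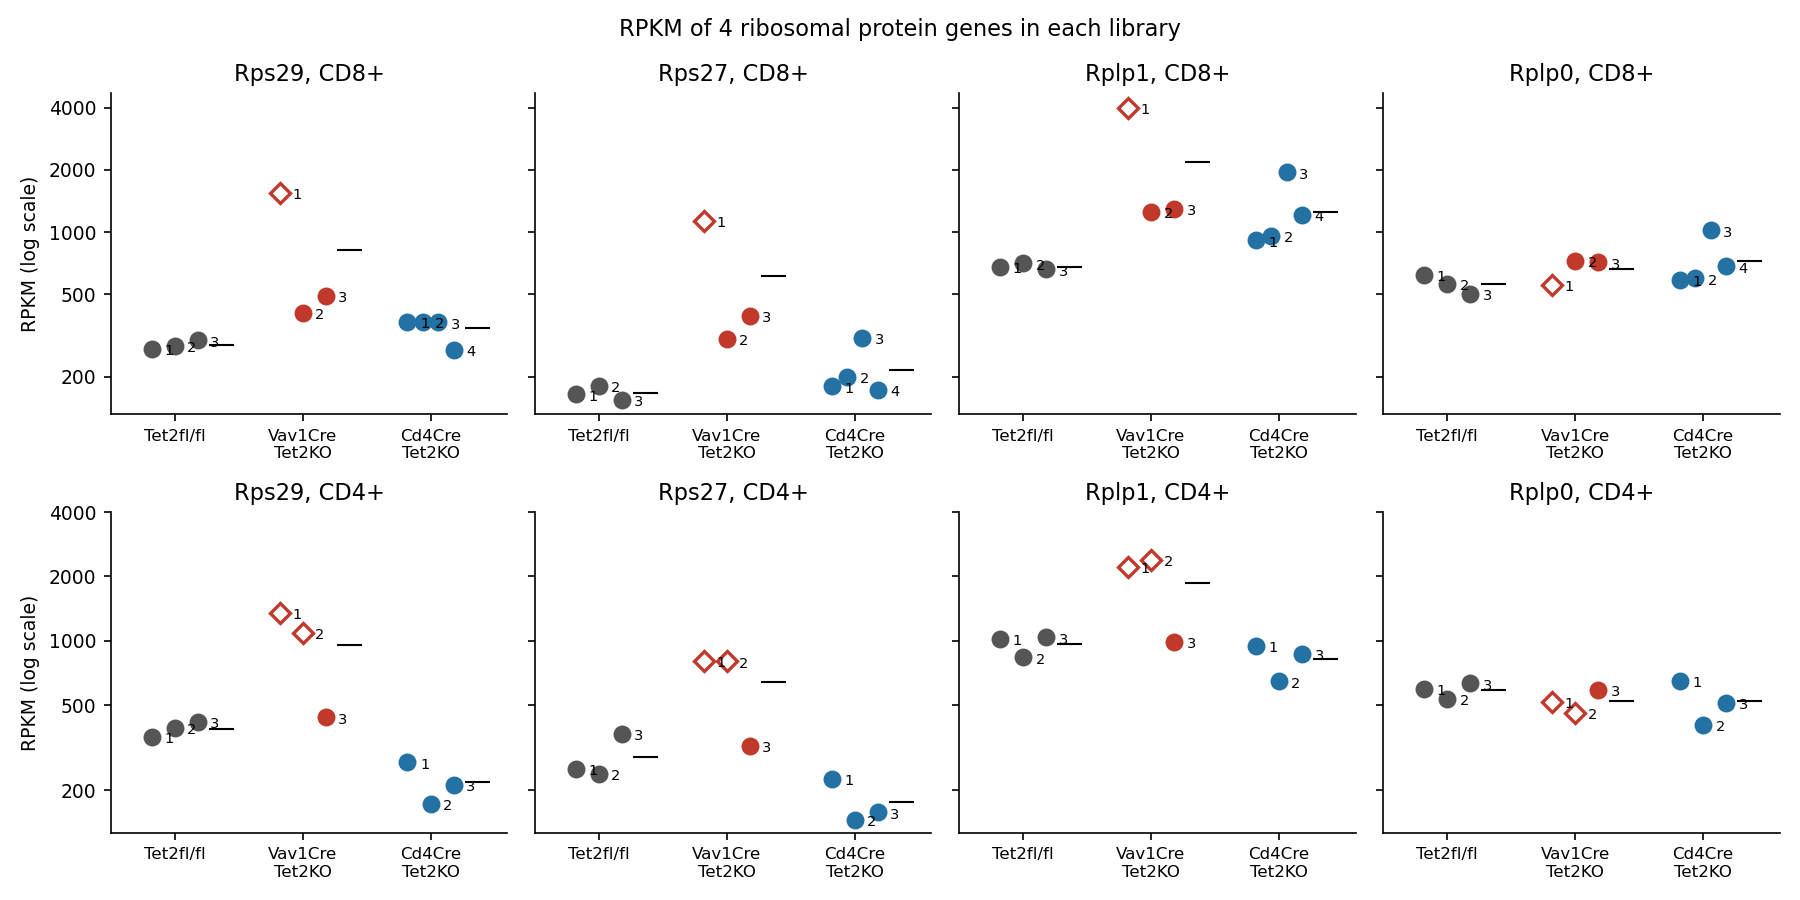
RPKM of single ribosomal protein genes in each library on a log axis, by cell type and genotype, with a tick at each group mean and open diamonds for the 3 tilted libraries. The highest Rps29 values are those of the tilted libraries (1549 in CD8+ and 1349 and 1093 in CD4+ cells), while Rplp0 lies within 404.7 to 1021 RPKM in every library.

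The proteins of the stalk, which share 1 complex, had unequal differences, and none was called. Rplp0, the stalk base, had 622.9, 561.8 and 501.4 RPKM in control CD8+ cells and 554.6, 729.4 and 714.2 in Vav1CreTet2KO cells, with overlap and a log2 difference of 0.24 (SE 0.29, limma adjusted p = 0.69). Rplp1, which binds it, had 3980, 1249 and 1293 RPKM in Vav1CreTet2KO CD8+ libraries, all above the controls given earlier. Rplp2, the partner of Rplp1, had 473.4, 393.6 and 433.5 against 1115, 472.9 and 741.6 RPKM, and 0.76 (SE 0.35, adjusted p = 0.287). In CD4+ cells the log2 differences of Vav1CreTet2KO from controls were -0.05 for Rplp0, 1.04 for Rplp1, 0.72 for Rplp2 and 0.66 for Rpl12. Whether Rplp0 and Rplp1 differ from each other in response was not tested.

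Rpl5 and Rpl11, which with the 5S ribosomal RNA bind Mdm2 and so link ribosome assembly to p53, had small differences in CD8+ cells. Rpl5 had 421.3, 341.7 and 401.8 RPKM in controls and 693.1, 418.5 and 520.8 in Vav1CreTet2KO libraries, with a log2 difference of 0.46 (SE 0.29). Rpl11 differed by 0.16 (SE 0.27) there and by 0.87 (SE 0.29, edgeR adjusted p = 0.287) in CD4+ cells, where it had 177.1, 176.7 and 206.7 RPKM in controls and 259.2, 488.1 and 222.8 in Vav1CreTet2KO libraries. Those CD4+ libraries did not overlap, with replicate 2 highest.

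Rps6, the small subunit protein phosphorylated by S6 kinase, had 816.9, 691.2 and 850.5 RPKM in control and 894.9, 776.3 and 1035 in Vav1CreTet2KO CD8+ cells, with a log2 difference of 0.19 (SE 0.27). Rpsa, also known as the laminin receptor, differed by 0.26 (SE 0.28) in CD8+ and by 0.17 (SE 0.24) in CD4+ cells. Rps27a, made as a fusion with ubiquitin, had 281.6, 208.6 and 286.9 RPKM in controls and 1026, 307.5 and 351.1 in Vav1CreTet2KO CD8+ libraries. These did not overlap, and the log2 difference was 0.90 (SE 0.40, adjusted p = 0.271). It was 1.31 (SE 0.33, edgeR adjusted p = 0.153) in CD4+ cells.

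All 15 listed genes mutated in Diamond-Blackfan anemia lay higher in Vav1CreTet2KO than in control cells of both types, with medians of 0.87 in CD8+ and 0.96 in CD4+ cells and none called. For all 80 members tested these medians were 0.72 and 0.77. Without the tilted libraries 14 of the 15 lay higher in CD8+ and 15 in CD4+ cells, with medians of 0.50 and 0.51. Of the 4 paralogs tested, 3 lay higher in each cell type, and 2 in each without the tilted libraries. Rpl22 differed by 1.02 (SE 0.43) and Rpl22l1 by 0.32 (SE 0.41) in CD8+ cells, and by 1.36 (SE 0.39) and 1.41 (SE 0.63) in CD4+ cells. Without the tilted libraries Rpl22 differed by 0.40 and -0.06 in the 2 cell types, and Rpl22l1 by -0.13 and 0.68. Rpl36a and Rpl36al differed by 1.04 (SE 0.45) and 0.62 (SE 0.31) in CD8+ and by 1.09 (SE 0.33) and 0.60 (SE 0.37) in CD4+ cells. Rps27l ranged from 1.35 to 32.8 RPKM within the Vav1CreTet2KO CD8+ libraries, and its values there enclosed those of every other CD8+ library.

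The spread between animals was described by the coefficient of variation. Its median over the 80 tested members was 15.3% in control CD8+ cells, 45.3% in Vav1CreTet2KO and 21.6% in Cd4CreTet2KO cells. In CD4+ cells it was 14.3%, 40.4% and 33.0%. Over CD8+ Vav1CreTet2KO replicates 2 and 3 alone it was 10.9%, so the value for that group rests on replicate 1. The CD4+ Vav1CreTet2KO group has 1 untilted library, which gives no spread. Rpl7 was the steadiest in CD8+ Vav1CreTet2KO cells at 2.19%, with 384.4, 378.3 and 395.0 RPKM.

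In Vav1CreTet2KO against controls the members' differences fell with transcript length, more steeply with the tilted libraries than without them. In CD8+ Vav1CreTet2KO against controls the median log2 difference was 0.90 for the 31 tested members of at most 600 bases, 0.66 for the 26 in between and 0.46 for the 23 of at least 900 bases. In CD4+ cells the medians were 1.05, 0.82 and 0.22. Without the tilted libraries they were 0.44, 0.36 and 0.29 in CD8+ and 0.51, 0.39 and 0.32 in CD4+ cells. Other genes of the same lengths had medians of 0.37 at most 600 bases and -0.12 at least 900 bases in CD8+ cells, and 1.34 and -0.19 in CD4+ cells. In CD8+ cells the members thus had higher medians than other genes in each length class, and in CD4+ cells the shortest members had a lower one, with no test run. The correlation of the difference with log2 length over the 80 members was -0.42 (Spearman -0.50) in CD8+ and -0.56 (Spearman -0.60) in CD4+ cells, as a description across genes that share libraries. In Cd4CreTet2KO against controls it was -0.13 in CD8+ and -0.18 in CD4+ cells.

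The untilted Vav1CreTet2KO libraries were also taken singly. In CD8+ Vav1CreTet2KO replicate 3 the members had a median 0.45 above the control mean on the log2 scale while all tested genes had -0.29 and other short genes -0.16. In replicate 2 the members had 0.29, all tested genes 0.08 and other short genes 0.23. In CD4+ Vav1CreTet2KO replicate 3 the members had 0.20, all tested genes -0.16 and other short genes 0.07. The part that the tilt plays in the 3 other libraries was not tested.

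**Figure D5:**
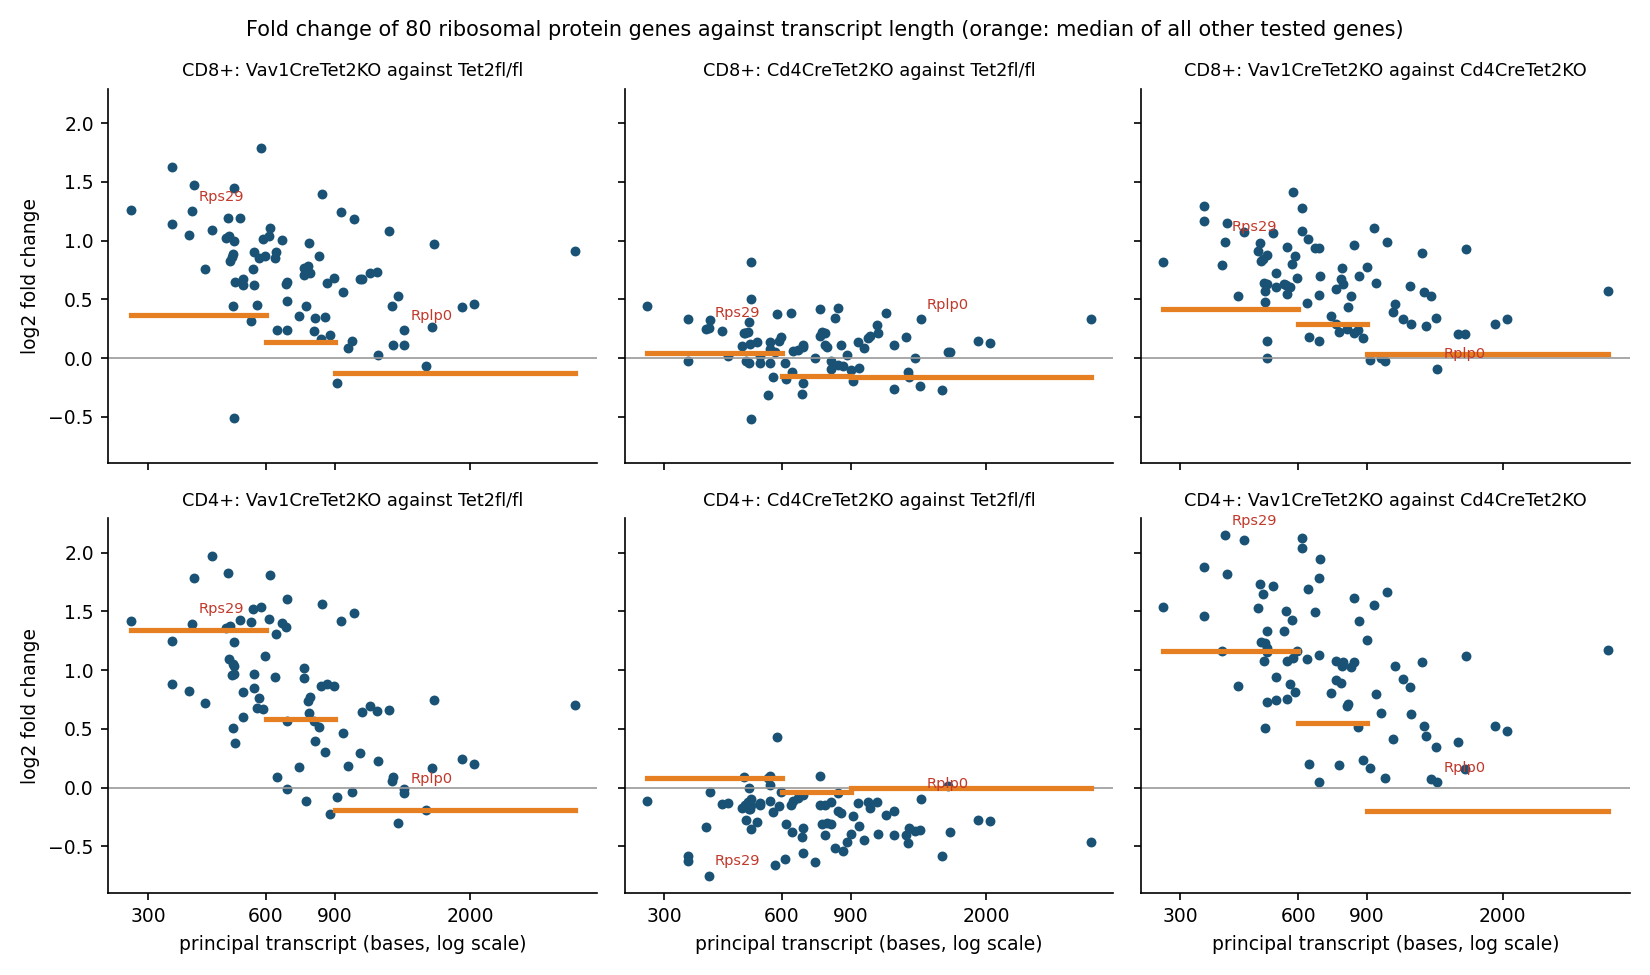
Log2 difference between groups for each of the 80 tested members against the length of its principal transcript in bases (log axis), 1 panel per comparison; orange lines are the median of other tested genes in each of 3 length classes. In CD4+ Vav1CreTet2KO against controls the members' medians fall from 1.05 to 0.22 from the shortest to the longest class, and in both Cd4CreTet2KO against control panels they lie between -0.33 and 0.14.

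The start of the transcript was examined because the TOP tract is the feature these mRNAs are known to share. RefSeq promoter sequences (GRCm38.p6) matched 63 of the 83 members. A tract was called where the annotated start base was a C followed without a break by C or T on the transcript strand, for a total of at least 5 bases. It was found at the annotated start of 13 members (20.6%), against 3.01% of 27025 genes and 0% of 69 mitochondrial ribosomal protein genes. Within 5 bases of the start the shares were 46.0% of members, 24.6% of mitochondrial ribosomal protein genes and 21.2% of all genes. Of the 12 matched elongation factor and other TOP genes, 2 (16.7%) had a tract at the start and 5 (41.7%) within 5 bases. The windows below give 10 bases before and 20 bases from the start, 5′ to 3′ on the transcript strand, with the tract in capitals. The windows were taken only from the 13 members with a tract at the annotated start. Of these, Rps27, Rps21, Rps10 and Rpl38 are shown because they were among the members of largest difference or closest to Rps29. Rps6 and Rplp2 are shown because they differed less. In GRCm38.p6 they lie at chr3:90213629-90213658 (minus), chr2:180257369-180257398 (plus), chr17:27635225-27635254 (minus), chr11:114668570-114668599 (plus), chr4:86857348-86857377 (minus) and chr7:141447641-141447670 (plus).
Rps27: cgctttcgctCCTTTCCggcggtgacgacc
Rps21: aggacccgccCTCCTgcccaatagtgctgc
Rps10: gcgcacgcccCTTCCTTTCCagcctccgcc
Rpl38: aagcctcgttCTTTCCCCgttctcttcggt
Rps6: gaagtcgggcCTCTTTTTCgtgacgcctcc
Rplp2: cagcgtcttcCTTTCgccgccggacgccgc

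All 6 windows carry a tract because they were chosen among members that have one. It runs from 5 bases in Rps21 and Rplp2 to 10 bases in Rps10. The log2 differences in CD8+ Vav1CreTet2KO against controls were 1.63 for Rps27, 1.47 for Rps21, 1.00 for Rps10, 1.14 for Rpl38, 0.19 for Rps6 and 0.76 for Rplp2. The 13 members with a tract at the annotated start had a median of 0.79 in that comparison, and the 47 matched members tested without one had 0.67. In CD4+ cells the medians were 0.84 and 0.70 against controls, and 0.89 and 1.04 against Cd4CreTet2KO. The absence of these letters at an annotated start says only that they are not there in this window.

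With all libraries, genes that share the TOP tract or serve translation in other ways had medians nearer to those of all genes than to those of the members in Vav1CreTet2KO against controls. Of 18 elongation factor and other TOP genes, 11 lay higher in Vav1CreTet2KO than in control cells of each type, with medians of 0.08 in CD8+ and 0.07 in CD4+ cells and none called. Eif3k, a subunit of initiation factor 3, had the smallest p in CD8+ cells, with 0.97 (SE 0.26, limma adjusted p = 0.0894). Npm1, a nucleolar chaperone, had the smallest in CD4+ cells, with 0.80 (edgeR adjusted p = 0.288). Against Cd4CreTet2KO in CD4+ cells the median was 0.31, with Tpt1, a growth-related TOP gene, at 1.13 (adjusted p = 0.151). The 29 initiation factors had medians of -0.12 in CD8+ and 0.06 in CD4+ cells against controls, the 42 ribosome biogenesis genes 0.03 and 0.04, and the 12 RNA polymerase I genes 0.18 and 0.22. The 16 genes of growth control, among them Mtor, Larp1 and Myc, had -0.17 and -0.36. Without the tilted libraries the elongation and other TOP genes had 0.06 and 0.21, the initiation factors -0.16 and -0.08, ribosome biogenesis -0.14 and -0.08, RNA polymerase I 0.07 and 0.08, and growth control -0.09 and 0.16. Of these, the TOP genes and growth control in CD4+ cells lay nearer to the members' median of 0.38 than to the -0.10 of all genes. Against Cd4CreTet2KO without the tilted libraries, the TOP genes had 0.20 in CD8+ cells, with 18 of 18 higher. In CD4+ cells they had 0.44, with 17 of 18 higher. The members had 0.25 and 0.68 there and all genes 0.05 and -0.11, so the TOP genes lay nearer to the members. No gene of these lists was called in any of the 6 comparisons.

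Mitochondrial ribosomal proteins were also counted. In CD8+ Vav1CreTet2KO against controls 36 of 78 lay higher, with a median of -0.07. In CD4+ cells 56 of 78 lay higher, with a median of 0.53, and none was called in either. Without the tilted libraries the medians were -0.13 and 0.01. Rps3a1, Fau and Rack1, ribosomal genes outside the naming rule that were looked at after their values were seen, differed by 1.80, 0.30 and 0.17 in Vav1CreTet2KO over Cd4CreTet2KO CD4+ cells and were not called.

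Other cell types and stress genes moved with some of the same groups. Summed over 11 genes that mark dendritic cells or MHC class II presentation, RPKM was 62.2 to 415 in control, 1029 to 2759 in Vav1CreTet2KO and 348 to 3000 in Cd4CreTet2KO CD8+ libraries, and 5 of the 11 were called higher in Vav1CreTet2KO over controls, among them H2-Aa, H2-Ab1 and Flt3. In CD4+ libraries the sums were 91.0 to 233, 460 to 855 and 98.9 to 251. Macrophage and monocyte genes summed to 16.3 to 38.3, 21.01 to 74.4 and 8.90 to 362 RPKM in CD8+ libraries. T cell genes such as Cd3e and Lck summed to 788 to 1122, 746 to 1304 and 542 to 853 in the same libraries. The 10 heat shock genes listed, which respond to stress and handling, summed to 3437 to 4850 in control, 2048 to 2134 in Vav1CreTet2KO and 1578 to 2059 RPKM in Cd4CreTet2KO CD8+ libraries, and Hspa1a and Hspa1b fell by 3.19 and 3.26 on the log2 scale in Vav1CreTet2KO against control cells (limma adjusted p = 0.0224 and 0.0285). In CD4+ libraries the heat shock genes summed to 3419 to 5356 in control, 1375 to 2076 in Vav1CreTet2KO and 1554 to 1948 RPKM in Cd4CreTet2KO libraries, again with controls above both mutants. The differences in the share of the ribosomal protein genes kept their direction with these genes, other than those of T cells, left out of the summed RPKM. Any other part of these genes in the shares was not tested. Without CD8+ Cd4CreTet2KO replicates 1 and 2, which hold the most macrophage transcripts, the share of that group exceeded controls by 3.66 points (exact permutation p = 0.2, the smallest possible for 2 against 3).

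In the authors' deposited table, 24 members had a false discovery rate under 0.05 on the higher side in CD8+ Vav1CreTet2KO against controls, where 1.64% of the genes with a value did. In CD4+ cells the authors' deposited table had 16 such members, where 0.784% of genes did. For Cd4CreTet2KO against controls it had 0 members in either cell type, where 1.62% of genes were higher in CD8+ and 0.0198% in CD4+ cells. Rps29 stood in the authors' deposited table at a log2 fold change of 1.57 (false discovery rate 0.00373) in CD8+ and 1.42 (0.0242) in CD4+ Vav1CreTet2KO cells.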

How the data were processed

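The authors deposited 1 table per cell type. The CD4 table held read counts and RPKM per library and the CD8 table RPKM only, per the file headers. The authors' log2 fold changes and false discovery rates (adjusted p-values) in the same deposited tables entered no test. The submitters' processing notes name the builds GRCm38 and mm10. The aligner, the counter and the handling of reads that also match pseudogenes of these genes are not stated. The analysis read 28 per-sample columns and left 18 unread.

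For CD4 libraries the edgeR 4.0.16 test was run on counts in R 4.3.3 (filterByExpr with 10 and 15, TMM, robust quasi-likelihood fit of all 9 libraries). The planned limma 3.58.1 trend fit on log2(RPKM + 1), with at least 1 RPKM in at least 3 libraries, was used for the 10 CD8 libraries. A fold change on this scale understates changes of low genes. Whole reads were recovered from CD8 RPKM: 100% of 134905 values lay within 0.01 of a whole number. Alternatives used DESeq2 1.42.0, other scalings, pseudocounts and filters, and left out libraries. All p-values were adjusted over all genes tested (Benjamini-Hochberg, 0.05). Shares were compared with two-sided exact permutation tests. Scripts were tested on simulated data. Replicates are separate animals. Principal transcripts came from GENCODE M21. Members and lists were chosen with earlier results of these data known. Genes named are Rps29, called members, the 4 highest and 4 lowest differences per comparison, the 5 highest and 3 lowest levels, paralogs with their parents, a fixed set of well-known members, and up to 3 called genes, or that of smallest p, per other list. Some genes that this rule names are not reported here.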

Additional observations from a re-analysis of the deposited data

Results flagged for a closer look

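Of 41 group values examined in the single group of 4 libraries, CD8+ Cd4CreTet2KO, 5 had a library whose gap to the nearest other exceeded Dixon's critical value for 4 samples as a part of the group's range. Chance alone gives this in about 1 in 20 groups. Those high in replicate 3 were Rpl29 at 658 RPKM (gap 0.920 of the range), Rps23 at 1042 RPKM (0.841) and Rpsa at 896 RPKM (0.899). Those low in replicate 4 were Rps28 at 146 RPKM (0.867) and Rps29 at 270.0 RPKM (0.977).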

How the results depend on the processing

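Differences in share and median kept their direction under the alternatives run for them, except that the CD8+ Cd4CreTet2KO median lay between -0.00 and 0.20 when single libraries were left out and between 0.24 and 0.35 with the other tools and scalings named above. Counts of members called were the least stable. In CD8+ Vav1CreTet2KO against controls (0 called) DESeq2 on recovered reads called 33 and RPKM scaled to an equal sum 2, Rps21 and Rps27 (2.76% and 0.563% of all genes called higher). In CD4+ Vav1CreTet2KO against controls (0 called) DESeq2 called 19 and no filter on low counts 29 (1.63% and 1.36% of all genes). In CD4+ Vav1CreTet2KO against Cd4CreTet2KO (1 called) DESeq2 called 35 and no filter 45 (1.47% and 1.41% of all genes). There limma and a fit of only the compared groups each called 0. Leaving out single libraries gave 0 to 1, 0 to 32 and 0 to 42 called in these 3 comparisons, the highest in CD4+ cells without Vav1CreTet2KO replicate 3 (where 2.75% and 2.42% of all genes were called higher), and 0 in the other 3. The median for CD8+ Vav1CreTet2KO against Cd4CreTet2KO was 0.25 with RPKM scaled to an equal sum, and also without Vav1CreTet2KO replicate 1. Without both tilted CD4+ libraries, an alternative chosen after seeing the data like the equal-sum scaling, the medians were 0.38 against controls and 0.68 against Cd4CreTet2KO, and the shares differed by 3.48 and 5.18 points. The values of subunits, lists, length classes and spread without tilted libraries were chosen after seeing the data too. The causes were not tested. Leaving out single libraries, shares differed by 4.63 to 9.84 points (CD8+ Vav1CreTet2KO against controls), 1.73 to 3.92 (Cd4CreTet2KO against controls) and 1.599 to 6.81 (Vav1CreTet2KO against Cd4CreTet2KO), and in CD4+ cells by 5.06 to 6.77, -3.19 to -0.592 and 6.48 to 8.85. Medians ranged over 0.39 to 0.96, -0.00 to 0.20 and 0.25 to 0.83 in CD8+ cells, and over 0.57 to 0.95, -0.49 to -0.04 and 0.81 to 1.27 in CD4+ cells. Replicate numbers pair no animals across genotypes: same-numbered libraries' deviations correlated between -0.09 and 0.10, and 2 libraries of each table correlated best with their own number. With the replicate number as a block, 1 member was called in CD4+ Vav1CreTet2KO against Cd4CreTet2KO and 0 in the other comparisons, and the share in CD8+ Vav1CreTet2KO against controls had an exact p of 0.25, the smallest a block of 3 allows. With 3 or 4 animals a group no share could reach 0.05, and 1 CD4+ library had 707866 reads.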
